A study of Ovis aries and Bos taurus with 10 samples.

Results

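The genes described here encode the proteins that remove introns from pre-mRNA and package it: the Sm and LSM rings, the proteins of the U1 and U2 particles, the PRPF proteins, the SR proteins and the hnRNP proteins. Members were the probe sets whose gene symbol in the chip annotation begins with HNRNP, SRSF, SF3A, SF3B, SNRP, U2AF, PRPF or LSM and a digit, with 1 probe set taken for each gene, the one with the highest mean log2(signal + 20) over the 6 captured arrays. The rule found 95 probe sets of 65 genes, out of 9155 genes with a symbol of their own on the array. They were 16 hnRNP, 9 SR, 11 LSM, 4 Sm, 2 U1 and 10 PRPF genes and 13 genes of U2 snRNP and 3' splice site recognition.

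Oocytes and granulosa cells (GC) had been cut by laser capture microdissection from sections of the ovaries of newborn sheep less than 1 day old, and the 3 follicle stages, primordial (Pd), then primary (Pm), then secondary (Sec), were kept separate. One array was hybridised for each compartment and stage, named PDO, PMO and SECO where they hold oocytes, while PDG, PMG and SECG hold GC, and each came from captures pooled over different animals, more of them for the primary stage than for the other two. The other 4 arrays held whole fetal ovary: bovine at 8 months post coitum and ovine at 132 days post coitum, both labelled by the standard Affymetrix method with a single round of amplification (P1), and the same ovine tissue after a double T7 amplification with Affymetrix labelling (P2) or Arcturus turbo labelling (P3). All captured samples were amplified and labelled by P3, and all 10 arrays were the Affymetrix Bovine Genome Array, so that ovine RNA met bovine probes on 9 of them. Since no captured group had a second array, the 3 stages stood in as the replicates of a compartment. Values are MAS 5.0 signals, scaled to 100 on each array, and differences are on the log2(signal + 20) scale, which understates the change of dim genes. Signals of different probe sets cannot be set against each other, because probes differ in how strongly they bind.

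Splicing takes place on the spliceosome, which is built on each intron from small nuclear ribonucleoproteins (snRNPs). U1 recognises the start of the intron, U2 its branch point, and U4, U5 and U6 then enter as a tri-snRNP and form the catalytic centre. SR proteins generally bind exons and help splice sites to be chosen, whereas hnRNP proteins coat the transcript and often act against nearby sites. Growing oocytes make and store large amounts of mRNA that is processed in the nucleus before it is kept in the cytoplasm.

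The labelled cell types were only in part separated on the arrays. Of 9 oocyte markers on the array, 2 were higher in oocytes at all 3 stages, and all but 2 were also detected on at least 1 GC array. Of 10 granulosa markers 5 were detected, and FST and INHA were the 2 of these that were higher in GC at all 3 stages, while AMH, KITLG, FOXL2, CYP19A1 and FSHR were detected on none of the 6 captured arrays. The summed signal of 6 stroma markers was 47050 on PDG against 15750 on PDO and 29510 on PMG against 4369 on PMO, but 12700 on SECG against 15690 on SECO. The summed signal of 4 smooth muscle markers was higher on the GC array at every stage (2199, 1034 and 1300, against 481.6, 392.3 and 481.5), mainly through MYH11, with TAGLN and DES detected on no captured array. SECO had the lowest oocyte marker sum of the 3 oocyte arrays (2792, against 7759 and 7940), below the 3476 of SECG. It also had an HBB (beta globin) signal of 3838, against 2.00 to 398 on the other 5. The other red blood cell markers, HBA and ALAS2, were detected on no captured array (42.6 and 4.89 on SECO). The ratio of the 3' to the middle GAPDH probe set, which grows as transcripts shorten, was 13.8 to 25.2 on the captured arrays and highest on SECO. For ovine fetal ovary this ratio was 0.804 with P1, 10.8 with P2 and 15 with P3, the method of the captured samples.

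Most of these genes were detected in both compartments. A probe set was called detected when its signal was among the brightest of its array, in the share of present calls known for that array, which put the limit at signals of 45.8 to 74.2 on the captured arrays. By this measure 54 of the 65 members (83.1%) were detected on all 6 captured arrays, against 34.8% of all genes, and 2 members (3.08%) were detected on none, against 31.4% of all genes. Between 54 and 60 members were detected on each captured array, with the lowest count on PMO, and between 58 and 65 on each fetal ovary array. No member was detected on all 3 arrays of a compartment and on none of the other. The members that were detected on no captured array were PRPF38A and PRPF39, which had signals of 2.06 to 13.9 and 4.77 to 21.2, and no difference is given for them. PRPF39 stood at 99.3 on the ovine P1 array and at 16.2 on P3. HNRNPL, which binds CA-rich RNA, passed the limit on PDG and SECG only (49.9 and 54.0), and SNRPA, the A protein of U1, on PDO only (80.3).

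The first question was whether oocytes and GC differed in these genes. Of the 63 members tested, 11 were higher in oocytes at all 3 stages (19.9% of all 6284 genes tested were), 13 were higher in GC at all 3 stages (16.5% of all genes), and 39 had differences of both signs. Thus 17.5% and 20.6% of the members held one direction, and over all members together both shares lay near those of all genes. All 3 oocyte signals exceeded all 3 GC signals for 8 members, or 12.7% (8.04% of all genes), and the reverse was seen for 9, or 14.3% (7.18% of all genes). The median difference of the members was 0.09 log2, against 0.05 for all genes. In the limma fit with stage as a term, 0 of 11642 probe sets passed an adjusted p of 0.05 (0.0% called), and at an unadjusted p of 0.05 1295 did (11.1%), among them 6 members. The lowest adjusted p of a member was 0.406, for SRSF5, so that the difference of no member passed the test. In these captures, a lower share of a cell type and less RNA of a gene per cell cannot be told apart.

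By their medians the classes of proteins lay on different sides. None of the 25 SR and hnRNP genes was higher in oocytes at all stages (19.9% of all genes were). Of the 25, 11 (44.0%, against 16.5% of all genes) were higher in GC at all stages, with a median difference of -0.46 log2. Of the other 38 members, 11 (28.9%, against 19.9%) were higher in oocytes at all stages and 2 (5.26%, against 16.5%) in GC, with a median of 0.33. These 11 were 6 LSM, 3 U2, 1 U1 and 1 PRPF genes, and 0 Sm genes. This division into RNA-binding regulators and particle proteins was made after the values had been seen, and no test was made of it. The medians of the SR and hnRNP genes were -0.40, -0.36 and -0.28 at the primordial, primary and secondary stages, and those of the other members 0.49, 0.30 and 0.22. At the secondary stage the SR genes alone had a median of -0.67 and the hnRNP genes of -0.13. The sum of the smooth muscle markers was higher on the GC array at all 3 stages and that of the stroma markers at the primordial and primary stages, and their part in these differences was not tested.

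**Figure D1:**
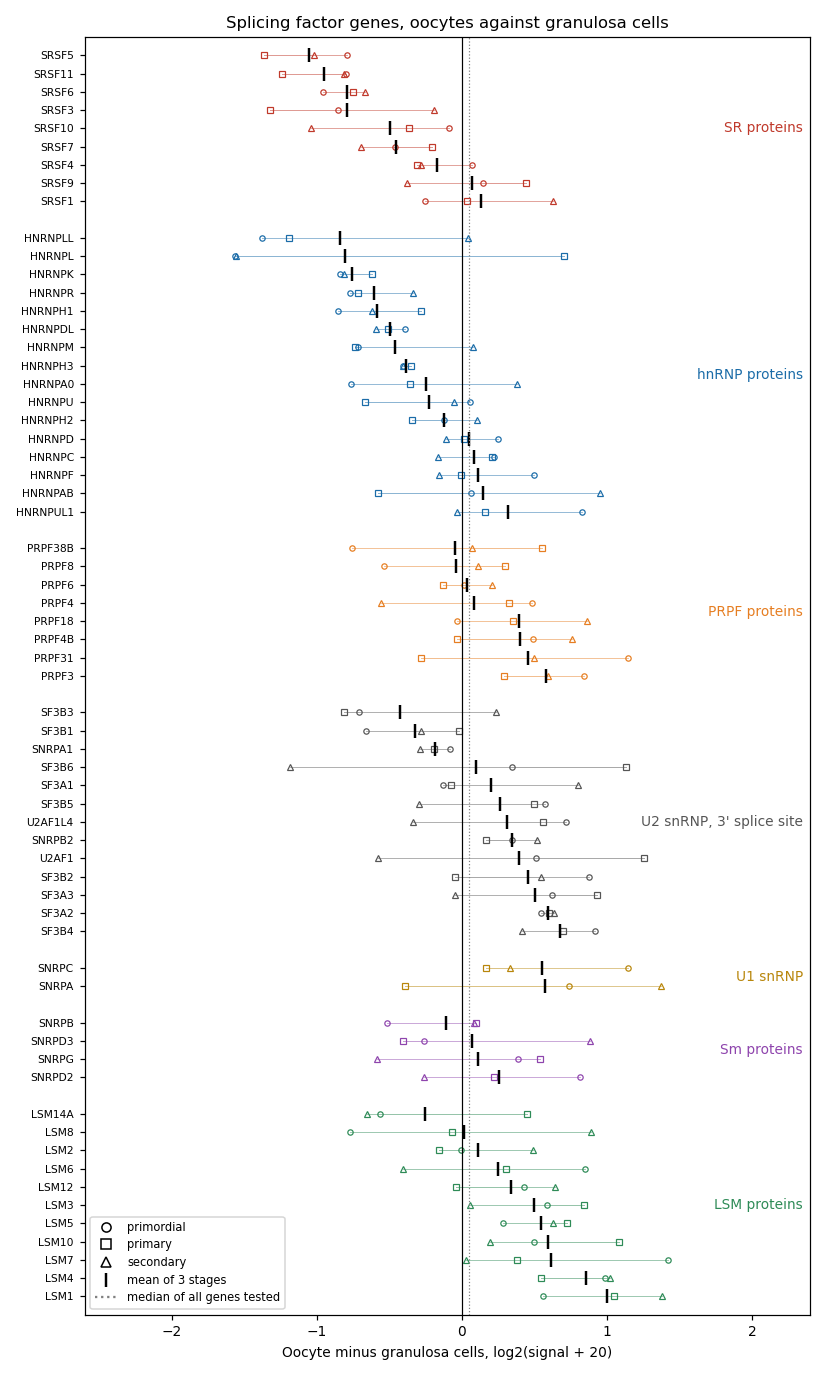
Difference between oocytes and GC in log2(signal + 20) for the 63 members tested, grouped by class. Open symbols are the 3 stages, black bars their mean and the dotted line the median of all genes tested. SR and hnRNP genes lie mostly to the left (higher in GC) and LSM genes to the right, and symbols of one gene often lie on both sides of 0.

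Of the 9 SR genes, 6 (66.7%, against 16.5% of all genes) were higher in GC at all stages, and in 5 (55.6%, against 7.18%) all GC signals exceeded all oocyte signals. SRSF5 had signals of 622 (PDO), 571 (PMO) and 815 (SECO) in oocytes and of 1089 (PDG), 1499 (PMG) and 1673 (SECG) in GC, and the signals of other genes are given in the same order of arrays. The groups did not overlap, and the difference was -1.06 log2 (SE 0.31, n = 3 stages; limma adjusted p = 0.406). SRSF11, an SR protein that meets the 3' splice site machinery, had 1942, 1968 and 2107 in oocytes against 3389, 4666 and 3721 in GC, a difference of -0.95 (SE 0.31; limma adjusted p = 0.410). The oocyte signals of SRSF11 stayed within a narrow range while the lowest GC signal was well above them, but averaged over its 3 probe sets the difference was -0.50. The others were each detected on 0 of the captured arrays and gave -0.32 and -0.235.

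SRSF6 had 171, 187 and 279 in oocytes against 352, 328 and 455 in GC (-0.79, SE 0.30; limma adjusted p = 0.423). SRSF3, which also serves as an adaptor for mRNA export, had 284, 287 and 472 in oocytes against 529, 748 and 541 in GC (-0.79, SE 0.34). For SRSF3 the difference was only -0.19 at the secondary stage, where the oocyte signal was highest. SRSF7, another export adaptor, had 2962, 2844 and 2765 in oocytes against 4081, 3288 and 4497 in GC, a smaller difference of -0.46 (SE 0.31). SRSF10, a splicing repressor when dephosphorylated, was nearly level in primordial follicles (1232 on PDO, 1311 on PDG) and apart in secondary follicles (969 on SECO, 2014 on SECG). The SR genes with differences of both signs were SRSF1, SRSF4 and SRSF9, whose mean differences were 0.13, -0.17 and 0.07.

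Among the 16 hnRNP genes, 5 (31.2%, against 16.5% of all genes) were higher in GC at all stages and 11 had differences of both signs. HNRNPK, which binds C-rich RNA and DNA, had 3482, 4975 and 3811 in oocytes against 6235, 7660 and 6705 in GC (-0.76, SE 0.30; limma adjusted p = 0.428). Its groups did not overlap, but the second HNRNPK probe set, with 221 to 491 on the captured arrays, gave 0.11, and the mean of both -0.32. HNRNPR had 848, 826 and 1293 in oocytes against 1458, 1367 and 1641 in GC (-0.61, SE 0.31). The others with one direction were HNRNPH1 and HNRNPH3, which bind G-rich tracts, and HNRNPDL, with differences of -0.58, -0.38 and -0.50. HNRNPL was on the GC side by its mean (-0.81, SE 0.49), although 4 of its 6 signals were under the detection limit and its 3 probe sets gave -0.81, 0.77 and -0.27. By contrast, HNRNPC, which sits on U-rich tracts, HNRNPD, a regulator of mRNA decay at AU-rich elements, and HNRNPF, a relative of HNRNPH1, differed by 0.09, 0.05 and 0.11, each less than its SE of 0.31, 0.30 and 0.32. HNRNPC had 2148, 2397 and 3358 in oocytes against 1842, 2076 and 3772 in GC, so that the stages differed more than the compartments. HNRNPD had 4557, 3730 and 4180 in oocytes against 3834, 3691 and 4516 in GC, and HNRNPF had 10940, 11270 and 6486 against 7746, 11340 and 7222.

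**Figure D2:**
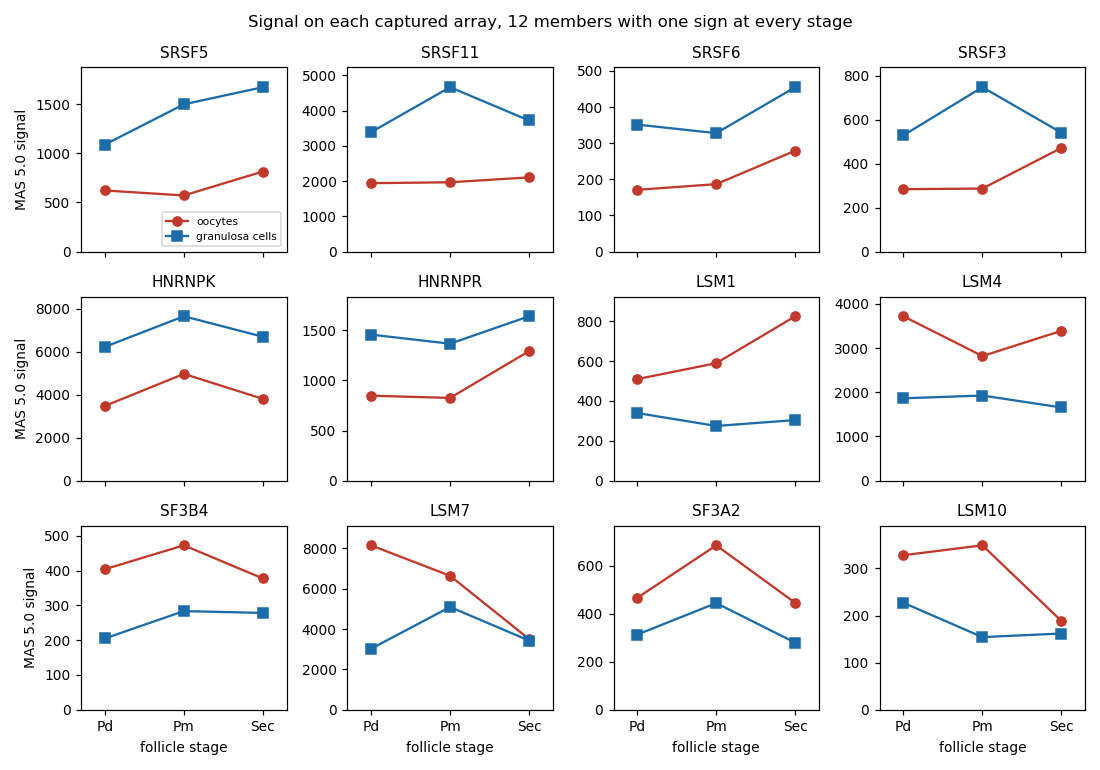
MAS 5.0 signal on the 6 captured arrays for the 6 members with the largest differences towards GC and the 6 with the largest towards oocytes, among those with one direction at all stages. Each point is 1 array, red circles oocytes and blue squares GC, from primordial (Pd) over primary (Pm) to secondary (Sec) follicles. The lines of SRSF5, SRSF11, HNRNPK, LSM1 and LSM4 stay far apart, whereas those of LSM7 meet at the secondary stage (3502 and 3429).

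On the oocyte side stood the LSM genes. Most of them encode subunits of a nuclear and a cytoplasmic ring on uridine-rich RNA ends, to which LSM10, LSM12 and LSM14A do not belong. Of the 11, 6 (54.5%, against 19.9% of all genes) were higher in oocytes at all stages and 0 in GC, and their median difference was 0.49. LSM1, the subunit that makes the ring cytoplasmic and directs it to mRNA decapping, had 510, 590 and 825 in oocytes against 339, 275 and 304 in GC (1.00, SE 0.32; limma adjusted p = 0.410). The distance was 0.56, 1.05 and 1.38 at the primordial, primary and secondary stages. LSM8, which takes the place of LSM1 in the nuclear ring that binds U6 RNA, differed on average by 0.02, with -0.77, -0.07 and 0.89 at the 3 stages.

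LSM4, a subunit of both rings, had 3721, 2820 and 3392 in oocytes against 1864, 1927 and 1657 in GC, and these groups did not overlap (0.85, SE 0.31; limma adjusted p = 0.414). LSM7, also in both rings, had 8150, 6640 and 3502 in oocytes against 3025, 5092 and 3429 in GC, where SECO fell within the range of GC (0.61, SE 0.37). LSM10, a protein of the U7 particle that processes histone mRNA ends, had 328, 349 and 188 in oocytes against 227, 154 and 162 in GC (0.59, SE 0.33). LSM5 and LSM3, further subunits of both rings, differed by 0.54 and 0.49, but the lowest oocyte signal of LSM3 (113) was level with its highest GC signal (112). The second probe set of LSM5 gave -0.38.

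In the U2 class 3 of 13 genes (23.1%) were higher in oocytes at all stages and 2 (15.4%) in GC, near the shares of all genes (19.9% and 16.5%). SF3B4, a subunit of the SF3B complex that holds U2 to the branch point region, had 404, 473 and 377 in oocytes against 205, 284 and 278 in GC (0.68, SE 0.31; limma adjusted p = 0.463). SF3A2, of the SF3A complex, had 466, 686 and 445 against 313, 445 and 280 (0.59, SE 0.30), and its dimmer probe set, detected on 3 captured arrays, gave -0.65. SNRPB2, which binds U2 RNA, had 491, 397 and 465 in oocytes against 381, 352 and 319 in GC (0.34, SE 0.30). These groups were apart for all 3 genes, for SF3A2 by less than 1 signal unit.

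SF3B1, the scaffold of SF3B, lay on the other side with 2945, 3231 and 4721 in oocytes against 4659, 3276 and 5755 in GC (-0.32, SE 0.31). Its probe sets differed in sign, as the 4 of them gave -0.32, -0.89, 0.30 and -0.25. The first and second were detected on all 6 captured arrays, the third on 2 and the fourth on 0. The second had 2193, 2607 and 3109 in oocytes against 4103, 5147 and 5409 in GC, without overlap. The second gene of this class that was higher in GC throughout was SNRPA1 (-0.19). U2AF1, which reads the AG at the 3' splice site, had 238, 211 and 252 in oocytes against 161, 76.9 and 386 in GC, so that its GC signals lay on both sides of all oocyte signals.

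Both U1 genes had positive means. SNRPC had 766, 507 and 586 in oocytes against 335, 449 and 461 in GC without overlap (0.55, SE 0.34), with the widest gap in primordial follicles. SNRPA had 80.3, 15.0 and 51.6 in oocytes against 40.1, 25.9 and 7.71 in GC, mostly under the detection limit (0.57, SE 0.40). Of the 8 PRPF genes tested, PRPF3, a tri-snRNP protein, was the only one higher in oocytes at every stage (0.58, SE 0.31), and none was higher in GC throughout. All 4 Sm genes had differences of both signs, with means of -0.11 to 0.26.

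Several probe sets stood for 21 of the members. Their mean differences had the same sign over all probe sets in 9 of these genes, and in 6 of the 13 genes with several detected probe sets. Direction therefore often depended on the probe set, and for SF3A2 the mean over its probe sets was -0.03. Among probe sets detected on all 6 captured arrays, only those of HNRNPK (-0.76 and 0.11) and HNRNPUL1 (0.32 and -0.004) differed in sign. The other disagreements involved a probe set detected on fewer arrays.

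Of a wider list of 115 splicing genes outside the rule, 88 had a probe set of their own and 79 were tested. Of these 21 (26.6%) were higher in oocytes at all stages and 14 (17.7%) in GC, against 19.9% and 16.5% of all genes, with a median of 0.15. In the limma fit 0 of them passed an adjusted p of 0.05. At an unadjusted p of 0.05, 9 of the 79 passed, and 677 of all 6284 genes did. The largest differences towards GC with one direction were those of FUBP1 (-0.92), RBM5 (-0.90), RBM39 (-0.81), DDX17 (-0.73) and TRA2A (-0.69). RBM5, RBM39 and TRA2A are regulators of splice site choice. RBM39 had 1864, 1959 and 1598 in oocytes against 2742, 3440 and 3379 in GC. TRA2B, the paralog of TRA2A, also lay on that side (-0.56) and was picked once its value had been seen. KHDRBS1 (-0.62), ELAVL1 (-0.60), RBMX (-0.59) and SON (-0.57) lay further on that side at all stages. The largest towards oocytes were CELF1 (1.18), RNPS1 (0.92), CLK3 (0.85), RALY (0.83) and SNRNP25 (0.83). CELF1, a regulator of both splicing and mRNA decay, had 450, 398 and 483 in oocytes against 343, 152 and 117 in GC. CLK3, a kinase that phosphorylates SR proteins, had 579, 670 and 972 in oocytes against 242, 433 and 575 in GC.

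The second question was how these genes differed between primordial and secondary follicles. Of the 63 members, 26 (41.3%) were higher at the secondary stage in both compartments (32.2% of all genes), 15 (23.8%) were lower in both (28.2% of all genes) and 22 went in different directions. The median was 0.12 log2 against 0.04 for all genes. In the limma fit 0 probe sets passed an adjusted p of 0.05 (0.0% called) and 1325 an unadjusted one (11.4%), among them 9 members. Of the 25 SR and hnRNP genes, 15 (60.0%) were higher at the secondary stage in both compartments and 1, HNRNPF, was lower in both, whereas 11 of the other 38 (28.9%) were higher and 14 (36.8%) lower.

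PRPF3 had the largest difference, with 249, 265 and 681 in oocytes against 130, 213 and 444 in GC from primordial to secondary follicles (1.51 log2, SE 0.38, n = 2 compartments; limma adjusted p = 0.263). Its signal was highest at the secondary stage in both compartments. HNRNPM, which binds GU-rich RNA, had 571, 593 and 1915 in oocytes against 953, 998 and 1813 in GC (1.31, SE 0.40; limma adjusted p = 0.323). In both cases the primordial and primary arrays lay close together in oocytes, and SECO stood above them. LSM14A, a protein of P-bodies where mRNA is kept silent, had 92.3, 246 and 247 in oocytes against 146, 175 and 400 in GC (1.30, SE 0.43). It gave 0.53 when averaged with its second probe set, which was detected on 0 of the captured arrays.

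The tri-snRNP proteins PRPF31 and PRPF8 also had higher secondary signals. PRPF31, which bridges U4 and U6 RNA to U5, had 59.2, 20.1 and 129 in oocytes against 15.8, 28.7 and 85.9 in GC (1.24, SE 0.45). It was detected on 3 of the 6 arrays and gave 0.64 when averaged with its second probe set, which was detected on 0 of them. PRPF8, the protein at the catalytic centre, had 571, 931 and 1615 in oocytes against 838, 753 and 1493 in GC (1.14, SE 0.40; limma adjusted p = 0.361). HNRNPC was higher at the secondary stage by 0.64 in oocytes while it was higher by 1.03 in GC. HNRNPA0, which binds AU-rich RNA, was higher in oocytes (468 on PDO, 1064 on SECO) and level in GC (809 on PDG, 814 on SECG). Its second probe set, detected on 4 captured arrays, was higher in both (65.8 on PDO and 108.5 on SECO, 88.8 on PDG and 145 on SECG).

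**Figure D3:**
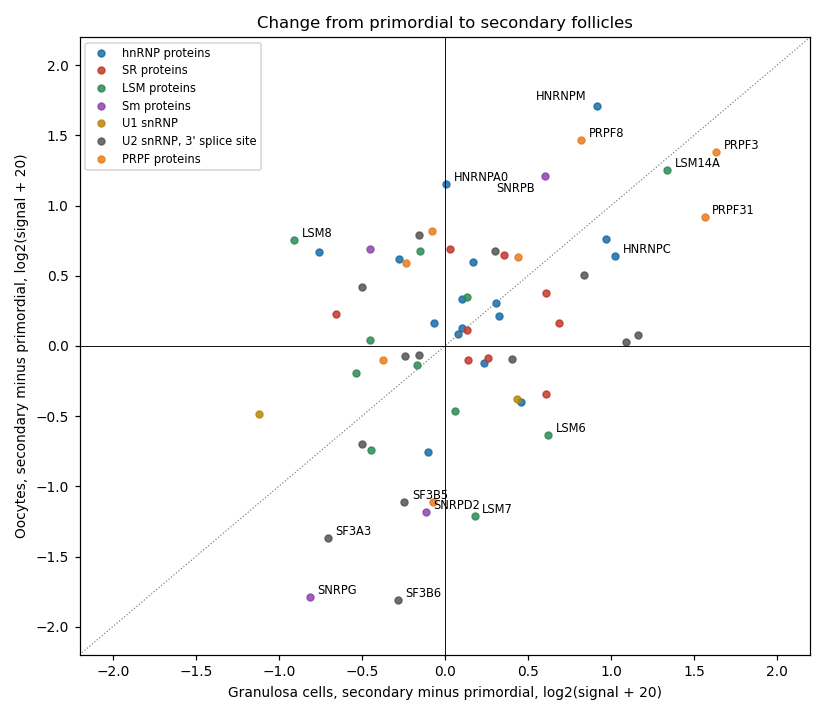
Secondary minus primordial difference in log2(signal + 20), GC on the horizontal and oocytes on the vertical axis, for the 63 members tested. Each point is a gene coloured by class, from 2 arrays on each axis, and the dotted line marks equal differences. PRPF3, PRPF31, LSM14A, PRPF8 and HNRNPM lie at the upper right, and SNRPG, SF3B6 and SF3A3 at the lower left with larger differences in oocytes than in GC.

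In the opposite direction SNRPG, a small Sm ring protein, had 2219, 1989 and 629 in oocytes against 1691, 1366 and 953 in GC (-1.30, SE 0.43; limma adjusted p = 0.348). SF3B6, the SF3B subunit that touches the branch point adenosine, had 2230, 3338 and 620 in oocytes against 1749, 1516 and 1435 in GC (-1.05, SE 0.57). Its mean over both probe sets was -0.55, the second of them detected on 1 captured array. SF3A3 had 534, 463 and 195 in oocytes against 341, 233 and 202 in GC (-1.04, SE 0.41). SF3B5, another small SF3B subunit, had 2061, 1770 and 943 in oocytes against 1378, 1247 and 1161 in GC (-0.68, SE 0.41). In all 4 genes the difference was larger in oocytes, where it was -1.79, -1.81, -1.37 and -1.11, than in GC, where it was -0.81, -0.28, -0.70 and -0.24, and SECO was the lowest of the 3 oocyte arrays. SNRPD2, also of the Sm ring, had the same form with 3632, 2924 and 1587 in oocytes against 2062, 2502 and 1903 in GC. SNRPB, the larger Sm protein, was higher at the secondary stage instead (129 to 325 in oocytes, 194 to 305 in GC).

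SECO was also the array with the HBB signal of 3838, the lowest oocyte marker sum and the highest GAPDH ratio, and the part of these in the oocyte differences was not tested. With 1 array for each compartment and stage, the follicle stage and the single captured sample cannot be told apart.

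The fetal ovary arrays were compared to see how these signals differed between labelling methods. Of 64 members detected on P1 or P3, 9 were at least 2-fold higher with P3 (16.8% of 6539 genes) and 16 at least 2-fold lower (19.0% of genes), with differences from -4.00 to 3.20 log2 and a median of 0.07 against -0.03 for all genes. With P2, 5 of 64 were at least 2-fold higher than with P1 (13.8% of 6509 genes) and 15 at least 2-fold lower (16.4% of genes). There was 1 array for each method, so these differences have no replicate check.

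LSM4 had a signal of 268 with P1, 1480 with P2 and 2634 with P3, and LSM7 of 591, 857 and 3129. PRPF3 had 132, 284 and 448, and PRPF8 had 814, 2060 and 2542. HNRNPL went the other way, from 1043 with P1 to 42.8 and 46.6, which lay around the detection limits of 44.7 and 42.3. SF3A1 had 355, 32.7 and 21.8, LSM5 had 494, 55.6 and 39.3, and SNRPA had 503, 62.6 and 67.5. For these 4 genes the P1 signal was 355 or more while both amplified arrays stood at 67.5 or less, and the low captured signals of HNRNPL and SNRPA were measured with the same P3 method. HNRNPH2 had 462 with P1, 652 with P2 and 151 with P3, so that P2 and P3 lay on opposite sides of P1.

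**Figure D4:**
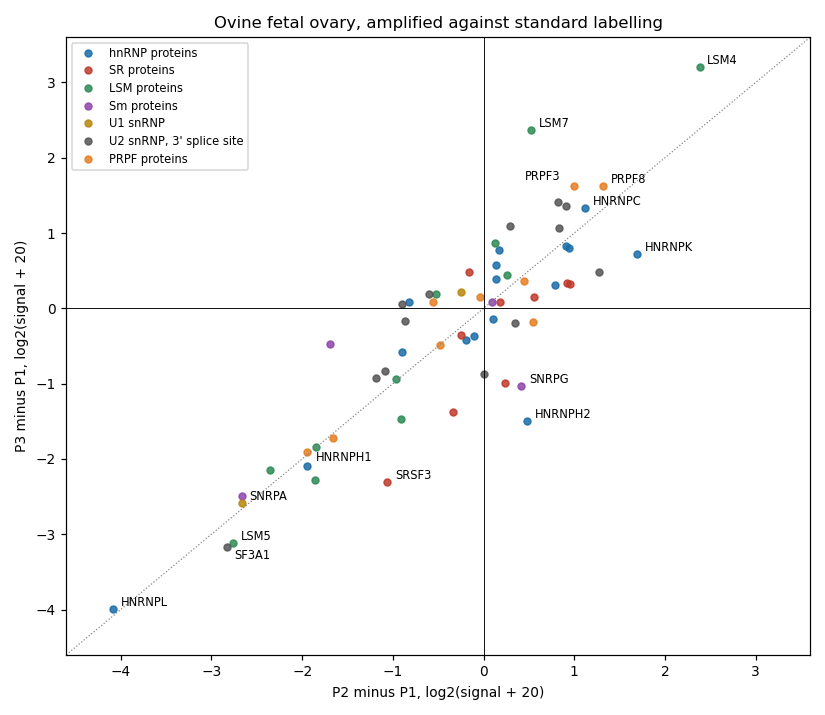
Differences in log2(signal + 20) of the ovine fetal ovary, P2 minus P1 on the horizontal and P3 minus P1 on the vertical axis, for the 64 members detected on P1 or P3. Both axes share the single P1 array, so points near the dotted line of equal differences are no independent evidence of each other. LSM4 lies at the upper right and HNRNPL, SF3A1 and LSM5 at the lower left.

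Probe sets of the same gene could differ in direction between the methods. Of 15 members with several probe sets detected on P1 or P3, 9 had differences of both signs and 7 were at least 2-fold lower on one probe set and higher on another. For SF3B1 the probe sets that were bright on the captured arrays gave P3 minus P1 differences of 1.41 and 1.00 log2, and the others of -3.46 and -3.36. One of these dim SF3B1 probe sets had 311 with P1 and 10.1 with P3, and its captured signals were 36.2 to 116. For HNRNPK the brighter probe set was higher with P3 (0.72) and the dimmer one lower (-1.99, from 2067 to 505). The probe set taken for each gene was the brightest on the captured arrays, which were all labelled by P3.

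The captured samples were also set against the fetal ovary labelled by the same P3 method. All 11 LSM genes had a higher mean in the captured oocytes than in the fetal ovary (52.1% of all genes did), and 8 of them in GC (51.0% of all genes). In oocytes LSM14A and LSM6 were higher by only 0.07 and 0.16 log2. The fetal signals of LSM12 and LSM5 (15.2 and 39.3) were under the detection limit of 42.3. All 9 SR genes were higher in captured GC than in fetal ovary, with a median of 0.75 log2 against 0.02 for all genes, and 7 of the 9 in oocytes. Over all members, the oocyte mean was above fetal ovary for 36 of 63 and the GC mean for 39. These comparisons share the single P3 array. SNRPG stood far above it in both compartments (2.32 for oocytes and 2.21 for GC, from a fetal signal of 266). U2AF1 and SNRPB stood far below it, with differences of -2.13 and -2.15 in oocytes and -2.52 and -2.04 in GC, from fetal signals of 1086 and 920. Age, tissue and capture differ together between these arrays and cannot be told apart.

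Finally, ovine and bovine fetal ovary were compared on the same bovine probes, both with P1. Of the 65 members, 11 were at least 2-fold higher with ovine RNA (13.3% of 7097 genes) and 9 at least 2-fold lower (17.7% of genes), and the median was 0.43 log2 against 0.05 for all genes. All 65 members were detected with bovine RNA and 64 with ovine RNA, the missing one being PRPF38A, which had 29.2 with bovine RNA. HNRNPL had 1043 with ovine and 220 with bovine RNA, LSM10 had 197 and 33.7, and SF3B4 had 854 and 239. PRPF4, a partner of PRPF3 in the tri-snRNP, had 167 with ovine and 700 with bovine RNA, SNRPC had 199 and 626, and SNRPB2 had 77.6 and 253. Species and fetal age differ together here, and there was 1 array for each.

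**Figure D5:**
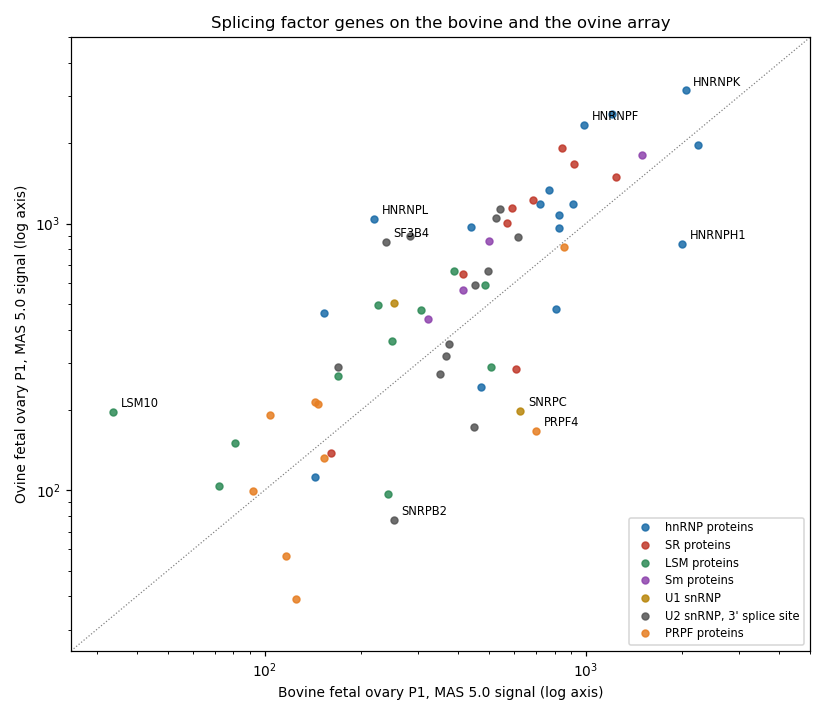
MAS 5.0 signal with bovine (horizontal) and ovine (vertical) fetal ovary RNA, both labelled by P1, on log axes. Each point is 1 member coloured by class, and the dotted line marks equal signals. PRPF38A, with an ovine signal of 0.2, is off the scale and not drawn. HNRNPL, LSM10 and SF3B4 lie above the line and PRPF4, SNRPC and SNRPB2 below it.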

How the data were processed

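RNA of 10 samples was hybridised to the Affymetrix Bovine Genome Array. The deposited values are signal intensities on a linear scale, made by the authors with MAS 5.0 in GCOS, with each array scaled to 100 and no further normalization; the submitters' processing notes give no versions. Present calls were not used here; detection was taken as the brightest probe sets of each array, in the percentage of present calls stated for it. After 112 controls were left out, 20 was added and log2 taken. limma 3.58.1 in R 4.3.3 was fitted with compartment and stage to the 11642 probe sets that passed detection on 1 or more of the 6 captured arrays (2 residual and 5.43 prior degrees of freedom), with Benjamini-Hochberg adjustment, and tested on simulated data. Each SE given is that of this fit over all 6 captured arrays, with a variance moderated towards that of all probe sets tested. The number of arrays limits the precision, and p values measure only the spread between these arrays. Symbols came from the platform annotation, which can be old, and 2 probe sets with several symbols were left out. No sequence is shown.

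Members and lists were chosen with earlier results of these data known. Members are named with values where they had the 6 highest or 4 lowest mean levels, the 6 largest differences between compartments or 4 between stages in each direction with one sign throughout, the 4 largest P3 against P1 or 3 largest ovine against bovine differences in each direction, probe sets that disagree by over 1 log2 unit, or a place in the study's lists (HNRNPC, SNRPA). Further members were picked for mention once their values had been seen: HNRNPA0, HNRNPDL, HNRNPH1, HNRNPH2, HNRNPH3, HNRNPUL1, LSM3, LSM6, LSM8, LSM12, SNRPA1, SNRPB, SNRPD2, SRSF1, SRSF4, SRSF9, SRSF10 and U2AF1. Genes of the wider list are named by size, except TRA2B, which was picked once its value had been seen, and the genes set beside it. Markers of leukocytes and endothelium were also examined, with summed signals of 116 to 211 and 213 to 2282 on the captured arrays. Alternatives covered the constant, scaling, filter, variance model, detection limit, probe set, fold, stage term and leaving out each stage.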

Additional observations from a re-analysis of the deposited data

Results flagged for a closer look

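The primordial to secondary difference of 2 LSM genes detected on all 6 captured arrays had opposite signs in the compartments, each over 0.5 log2 units. LSM8, of the nuclear ring, had 301 on PDO and 523 on SECO but 529 on PDG and 273 on SECG, so that the oocyte difference exceeded the GC difference by 1.66. LSM6, a subunit of both rings, went the other way with 165 and 99.0 in oocytes and 82.5 and 138 in GC, a difference of -1.26. Each rests on 1 array for each compartment and stage, and the difference between compartments was not tested.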

How the results depend on the processing

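With a constant of 1, 20 or 50, a floor, quantile normalization, another filter or no stage term (0 probe sets called without the replicate block), no member passed an adjusted p of 0.05. Calls on other genes depended on the variance model, the constant and the stages used, and none was a member. With an intensity trend 10 probe sets passed for oocytes against GC and 67 for secondary against primordial. For the latter, 37 passed with a constant of 50 and 18 without the primary stage. Unadjusted, 1295 and 1325 passed. Averaging all probe sets of a gene gave the SR and hnRNP genes a median of -0.38 and turned SF3A2 to -0.028; it also moved SRSF11 to -0.50, HNRNPK to -0.32, LSM14A to 0.53, PRPF31 to 0.64 and SF3B6 to -0.55. LSM7 was 0.21 without the primordial stage, and SRSF3 -0.52 and LSM10 0.35 without the primary stage. Leaving out a stage in turn moved the median of all members between -0.056 and 0.059 and that of the SR and hnRNP genes between -0.40 and -0.38. By construction, fewer stages then had to agree. Of the 63 members 16 to 24 were then higher in oocytes (29.3 to 33.8% of all genes) and 15 to 22 in GC (24.9 to 29.6%). Of the 38 particle proteins 15 to 20 were higher in oocytes. Counts of 2-fold changes were 5 lower with ovine RNA (constant 50, 11.9% of all genes) and 3 higher with P2 (mean of probe sets, 8.27% of all genes). With a fold of 3 they were 2 higher with P2 (3.6% of all genes) and 4 higher with P3 (6.53%). At that fold, 4 were higher (3.66%) and 1 lower (7.83%) with ovine RNA. Of 144 alternatives for single members 143 kept the sign, and 161 of 183 for other results stayed within their limits. Since each captured sample was 1 array, leaving out an array equals leaving out its stage.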
